A study of Mus musculus with 8 samples.

Results

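Matricellular proteins are secreted into the extracellular matrix but do not build its fibres. They bind integrins, other cell-surface receptors, growth factors and structural matrix proteins, and so tune adhesion, migration and growth factor activity. In the heart they are known from valve and epicardial development and from the response to injury, when several of them are induced together. The 10 genes described here were chosen by name from the 35275 genes of the deposited tables, with earlier results of these data known: the thrombospondins Thbs1 and Thbs2, the tenascin Tnc, the CCN genes Ctgf, Cyr61 and Nov (now named Ccn2, Ccn1 and Ccn3), periostin (Postn), Sparc, osteopontin (Spp1) and matrix Gla protein (Mgp). All 10 were found, and all 10 passed the filter on low counts, Nov through the group in which it was higher.

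RNA was sequenced from a mouse epicardial cell line, a cultured model of the cell layer that covers the heart, grown in high-glucose medium with fetal bovine serum. The control group (EV) had been transduced with a lentivirus carrying an empty vector (4 libraries), and the other group (KO) was labelled by title as an Hdac3 knockout made with CRISPR/Cas9, also delivered by lentivirus (4 libraries). HDAC3 is a histone deacetylase that works with nuclear corepressors. No source used here says whether the KO cells were 1 clone or a pool, or whether replicates were separate cultures, so p-values measure only the spread between these libraries, which may be technical.

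Library totals ranged from 18063745 to 24564892 counts. The Hdac3 transcript stood between 60.3 and 64.0 CPM (counts divided by library size after TMM normalization) in EV and between 56.9 and 63.9 CPM in KO (log2 fold change −0.005, SE 0.0528, edgeR adjusted p = 0.956). Its sign turned without EV replicate 3 or KO replicate 2. CRISPR edits may leave transcript levels as they were, so the labels are not checked by this level. For KO replicate 1 the title and the transduction field disagree, the latter giving the empty vector, and the fold changes of the named genes and the counts of called genes for the members and the 4 other gene lists were also computed without this library. Without it the same number of members, 6, were lower, and 2 were higher in place of 3, since Tnc did not pass. The labelled cell type was checked against 10 epicardial markers, of which 9 were tested. Among them Wt1 stood at 341 ± 13.7, Upk3b at 1858 ± 80.5 and Tbx18 at 16.1 ± 1.44 CPM in EV (SD, n = 4 each), while Aldh1a2 was near 0 (0.407 CPM). Of the 9, 4 rose and 3 fell (77.8% called, against 26.0% of all genes tested). By log2 fold change Wt1 (−0.37), Upk3b (−0.34) and Tcf21 (−0.735) fell, while Msln (0.44), Krt8 (1.66), Krt18 (0.54) and Krt19 (1.01) rose. The summed level was 3669 to 3915 CPM in EV and 3722 to 3830 CPM in KO. That sum held opposite moves: Upk3b went from 1858 to 1465 CPM, Msln from 683 to 926 CPM and Krt18 from 449 to 654 CPM. The abbreviation MCEC in the labels is also in use for cardiac endothelial cells, and 7 endothelial markers were therefore measured too, which summed to 24.7 to 28.6 CPM in EV and 19.1 to 21.3 CPM in KO. Most of that sum was Kdr (21.7 CPM in EV and 14.6 CPM in KO, edgeR adjusted p = 1.32e-05), followed by Tek (3.89 and 5.18 CPM, adjusted p = 0.0298), while Pecam1, Cdh5 and Cldn5 were near 0 (means of 0.152, 0.0337 and 0 CPM in EV). Emcn and Vwf were low too (0.449 and 0.0952 CPM in EV).

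Most matricellular genes differed between the groups, and more of them were lower than higher in KO. Periostin, thrombospondin 2 and matrix Gla protein fell to 32.7, 33.1 and 37.6% of their EV means, Ctgf to 55.9%, Cyr61 to 77.2% and Sparc to 86.1%. Osteopontin rose to 164%, Nov to 307% at a very low level, and tenascin C to 111%. Thbs1 did not pass the test. In edgeR's quasi-likelihood test with Benjamini-Hochberg adjustment over 12801 genes, 9 of 10 members passed an adjusted p of 0.05, against 26.0% of all genes tested. By direction 3 were higher, against 12.6% of all genes, and 6 were lower, against 13.4%. The 3 higher included Nov, which passed the low-count filter through its KO libraries. In 8 of 10 the EV and KO libraries did not overlap in CPM, against 26.5% of all genes. Of the 8, 2 were higher, Spp1 and again Nov (12.6% of all genes were higher), and 6 were lower (13.9%). For each of these 8 the two-sided exact permutation p was 0.0286, the lowest value this permutation test can take with 4 against 4. That value follows from the lack of overlap and is no second test. The median log2 fold change of the 10 members was −0.29, against 0.0050 over all genes tested. In bulk RNA, fewer cells of a type and less RNA per cell cannot be told apart.

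**Figure D1:**
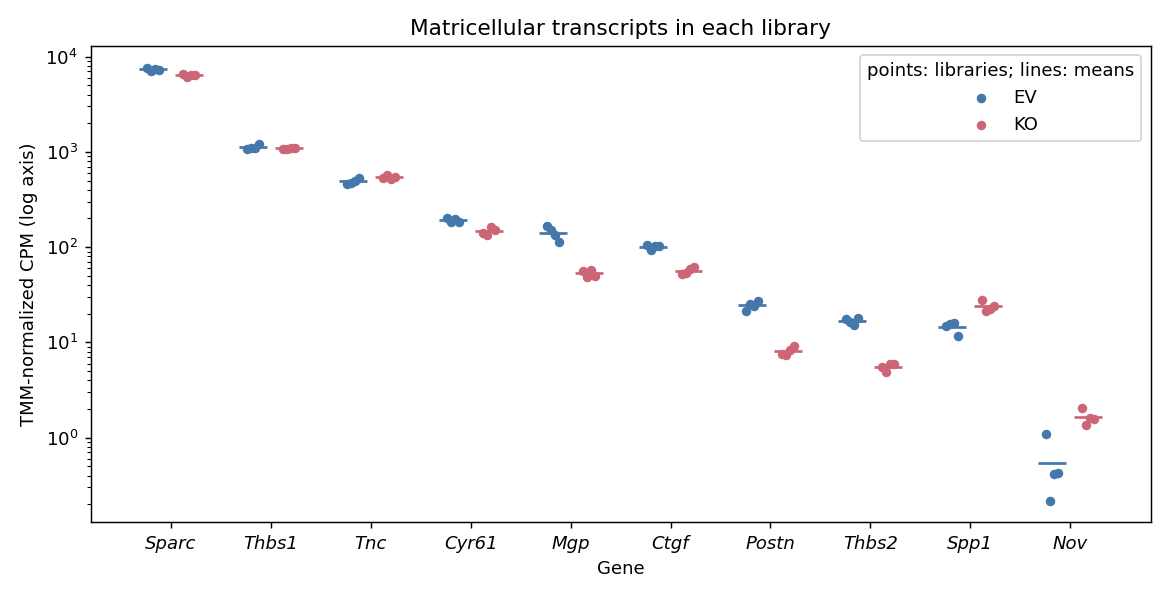
TMM-normalized CPM (log axis) of the 10 matricellular genes in each of 4 EV and 4 KO libraries, ordered by EV mean; points are libraries and lines are group means. Postn, Thbs2 and Mgp show the widest gaps downward, Spp1 and Nov lie higher in KO, and the groups of Thbs1 and Tnc overlap.

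The members covered a wide range of abundance. Per length, in the authors' FPKM values (counts per kilobase of gene length and per library sum), Sparc stood at 3266 ± 80.7 in EV (SD, n = 4) and was the gene of rank 2 in the whole table by its mean over all libraries. Mgp followed at 240 ± 38.3, Thbs1 at 194 ± 12.3, Cyr61 at 95.8 ± 4.75, Tnc at 70.2 ± 4.52 and Ctgf at 41.3 ± 1.84 FPKM in EV (SD, n = 4 each). Mgp and Thbs1, neighbours in this order, overlapped in EV, since the lowest EV library of Mgp (192 FPKM) lay below the highest of Thbs1 (212 FPKM). The other 4 were lower still in EV, with Spp1 at 9.82 ± 1.32, Postn at 5.77 ± 0.624, Thbs2 at 2.89 ± 0.219 and Nov at 0.191 ± 0.134 FPKM (SD, n = 4 each). In KO, Mgp (87.1 ± 7.22 FPKM, SD, n = 4) lay below Thbs1 (182 ± 1.46 FPKM, SD, n = 4). The means of Cyr61 and Tnc also changed places, at 71.4 ± 5.85 and 75.2 ± 3.57 FPKM in KO (SD, n = 4 each), but their KO libraries overlapped. Sparc made up 83.2 ± 0.492% of the summed FPKM of the 10 genes in EV and 85.6 ± 0.304% in KO (SD, n = 4 each), while the share of Mgp went from 6.10 ± 0.885% to 2.74 ± 0.197%. The summed FPKM itself went from 3926 ± 97.2 to 3173 ± 89.5 (SD, n = 4 each), most of which was Sparc. These FPKM values carry no TMM scaling. In TMM-normalized CPM, which is not per length, the 10 genes summed to 9197 to 9729 in EV and to 7991 to 8465 in KO.

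Thrombospondins are large secreted glycoproteins. Thrombospondin 1 binds the receptors CD47 and CD36 and activates latent TGF-beta, and thrombospondin 2 inhibits angiogenesis and helps clear the gelatinase MMP2 through the receptor LRP1. Thbs2 (ENSMUSG00000023885, mm10 chromosome 17, 14665500 to 14694262, minus strand) stood at 17.53, 16.52, 15.18 and 17.98 CPM in the EV libraries, replicates 1 to 4 in order, and at 5.52, 4.90, 5.95 and 5.90 CPM in the KO libraries. All EV libraries lay far above all KO libraries. It was 3.01-fold lower (log2 fold change −1.59, SE 0.102, edgeR adjusted p = 1.20e-09), from 100 to 142 counts per KO library. On the log2(FPKM + 1) scale, which understates the change of low genes, it was −1.01. Thbs1 (ENSMUSG00000040152, chromosome 2, 118111876 to 118127133, plus strand) stood at 1060, 1103, 1092 and 1212 CPM in EV and at 1084, 1071, 1087 and 1100 CPM in KO. The groups overlapped, with EV replicate 4 the highest library. Its log2 fold change was −0.041 (SE 0.0452, edgeR adjusted p = 0.547), with an approximate 95% interval from −0.13 to 0.048, and its sign turned without EV replicate 4. The 2 thrombospondins therefore moved apart: within each library the FPKM ratio of Thbs1 to Thbs2 was 67.5 ± 4.79 in EV and 198 ± 16.4 in KO (SD, n = 4 each), 2.94-fold higher (exact permutation test, two-sided, p = 0.0286, adjusted p = 0.0405 over 17 ratios between tested relatives). These 17 ratios were added after values were seen.

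The series title places the study in a microRNA pathway, and published work on epicardial HDAC3 names miR-322 and miR-503. Their mature sequences are shown because their seeds (bases 2 to 8, in capitals) share their first 6 bases, so that related sites can be looked for in the members' transcripts. Both are from RefSeq (GRCm38.p6, chromosome X, minus strand, 53054306 to 53054327 for miR-322-5p and 53054027 to 53054049 for miR-503-5p).
mmu-miR-322-5p: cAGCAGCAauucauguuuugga
mmu-miR-503-5p: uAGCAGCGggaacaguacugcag
Of the 10 members, 3 had a 7-base match to the miR-322-5p seed in their longest 3' UTR in GENCODE M21 and 1 had a match to that of miR-503-5p, where 25.3% and 4.90% of 11883 tested genes with a 3' UTR had one. A match of 7 letters is a description and not evidence of a site in use. The matches are printed 5′ to 3′ as transcript strand with the 7 bases in capitals, to set beside the fold changes of their genes.
Thbs2, base 203 of the 3' UTR, miR-322-5p: agcttccagccTGCTGCTggaa
Thbs2, base 886, miR-322-5p: tttcctgtcccTGCTGCTagga
Ctgf, base 1483, miR-322-5p: caggaagtgctTGCTGCTtctt
Ctgf, base 357, miR-503-5p: gcacagacggcCGCTGCTgcac
Thbs1, base 568, miR-322-5p: gcatttctgcaTGCTGCTggtg
Thbs2 and Ctgf, each with 2 matches, fell (−1.59 and −0.84), and Thbs1, with 1, did not pass the test (−0.041). These 3 also had the longest 3' UTRs of the 10 members, at 2013 bases in Thbs2, 1608 in Ctgf and 2104 in Thbs1. The others had 209 to 1534 bases. Postn, Mgp, Cyr61 and Sparc fell and Spp1, Nov and Tnc rose, and none of these 7 held a match to either seed in that UTR.

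Tenascin C is a large hexameric glycoprotein that loosens cell adhesion and appears in the heart during remodelling. Tnc (ENSMUSG00000028364, chromosome 4, 63959785 to 64047015, minus strand) stood at 465, 473, 492 and 533 CPM in EV and at 531, 577, 521 and 548 CPM in KO. The groups overlapped, since EV replicate 4 lay above KO replicates 1 and 3. Its log2 fold change was 0.15 (SE 0.0499, edgeR adjusted p = 0.0330), but the two-sided exact permutation p was 0.0857. The call was lost in 11 of 19 alternative fits, among them library totals alone (0.099, adjusted p = 0.156), the FPKM values and the fits without any of EV replicates 1, 2 and 3 and KO replicates 1, 2 and 4. Tnc overlaps a transcript on the opposite strand that held between 1 and 7 counts per library.

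The CCN proteins are small cysteine-rich secreted regulators that bind integrins. CTGF and CYR61 are classic targets of the YAP-TEAD, SRF and TGF-beta pathways and promote matrix production and adhesion, and NOV often acts against CTGF. Ctgf (ENSMUSG00000019997, chromosome 10, 24595442 to 24598683, plus strand) stood at 106, 93.8, 103 and 103 CPM in EV and at 51.9, 53.4, 59.1 and 61.9 CPM in KO. The groups did not overlap, and the fall was 1.79-fold (log2 fold change −0.84, SE 0.0600, edgeR adjusted p = 4.55e-09). Cyr61 (ENSMUSG00000028195, chromosome 3, 145646971 to 145649985, minus strand) stood at 203, 182, 197 and 182 CPM in EV and at 142, 134, 163 and 151 CPM in KO. It too fell without overlap, but by less, 1.30-fold (−0.37, SE 0.0576, edgeR adjusted p = 7.44e-05). The FPKM ratio of Ctgf to Cyr61 went from 0.432 ± 0.0187 in EV to 0.313 ± 0.0196 in KO (SD, n = 4 each; exact permutation test, two-sided, adjusted p = 0.0405 over 17 ratios). The ratio was lower in every KO library than in any EV library. It was added after values were seen, so it describes these falls and is no further test. Nov (ENSMUSG00000037362, chromosome 15, 54745702 to 54754039, plus strand) held 20, 5, 9 and 9 counts in EV and 39, 28, 37 and 38 counts in KO, or 1.10, 0.219, 0.417 and 0.427 CPM against 2.07, 1.37, 1.595 and 1.58 CPM. All KO libraries lay above all EV libraries, although a count of 3, the limit that a count of 0 allows, is already between 0.125 and 0.164 CPM. Of the EV libraries only replicate 1 held at least 10 counts, the filter's minimum, so Nov passed that filter through its KO libraries. The fitted rise was 3.15-fold (log2 fold change 1.66, SE 0.352, edgeR adjusted p = 0.00164), with the widest error of the 10 members, and it was 0.40 on the log2(FPKM + 1) scale. Ctgf overlaps a transcript on the opposite strand that held at most 3 counts per library.

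The upstream sequence of Cyr61 is shown because Cyr61 is a well-known TEAD target and its 250 bases before the start held the letters of that factor's motif. RefSeq promoters (GRCm38.p6) were matched for 6 of the 10 members, Thbs2, Tnc, Cyr61, Postn, Sparc and Spp1. They were searched on both strands for the TATA box, spelled TATAAA, which stood in 12.4% of 32851 promoters. The search also took the TEAD motif, spelled GGAATG and found in 12.6% of promoters. The AP-1 motif, spelled TGANTCA, was found in 6.75% and the CArG box of SRF in 1.47%. Matches are in capitals. Cyr61 had a GGAATG on the reverse strand that began 103 bases before the start and a TATAAA 25 bases before it.
Cyr61, chr3:145649986-145650235, minus strand: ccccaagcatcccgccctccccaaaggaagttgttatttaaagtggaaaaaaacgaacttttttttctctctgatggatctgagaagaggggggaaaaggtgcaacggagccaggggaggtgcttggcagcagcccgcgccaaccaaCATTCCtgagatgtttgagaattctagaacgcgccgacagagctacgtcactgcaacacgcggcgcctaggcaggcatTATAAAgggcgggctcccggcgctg
The promoters of Postn and Thbs2 are shown beside it as those of the 2 members with a matched promoter that fell most by log2 fold change. Postn, of whose RefSeq starts the one nearest the deposited gene start is shown, had a TATAAA 26 bases before it, and Thbs2 a TATAAA on the reverse strand beginning 126 bases before its start. Neither held a match to the TEAD, AP-1 or CArG letters, which says nothing about these factors outside this window.
Postn, chr3:54360857-54361106, plus strand: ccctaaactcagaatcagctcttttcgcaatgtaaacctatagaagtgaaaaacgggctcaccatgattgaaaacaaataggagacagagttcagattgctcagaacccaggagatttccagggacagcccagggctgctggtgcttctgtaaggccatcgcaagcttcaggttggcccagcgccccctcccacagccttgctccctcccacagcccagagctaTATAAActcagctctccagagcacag
Thbs2, chr17:14694263-14694512, minus strand: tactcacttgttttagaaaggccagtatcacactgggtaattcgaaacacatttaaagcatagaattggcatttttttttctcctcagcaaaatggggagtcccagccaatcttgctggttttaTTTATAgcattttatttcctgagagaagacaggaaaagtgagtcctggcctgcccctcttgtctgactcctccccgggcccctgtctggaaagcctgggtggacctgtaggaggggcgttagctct
No AP-1 or CArG letters were found in any of the 6 matched members, in Tnc, Sparc and Spp1 as in those shown.

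Periostin is a fasciclin-domain protein that binds integrins and collagen and helps BMP1 activate the collagen cross-linking enzyme LOX. It marks endocardial cushion mesenchyme and activated cardiac fibroblasts. Postn (ENSMUSG00000027750, chromosome 3, 54361109 to 54391034, plus strand) stood at 21.5, 25.6, 24.2 and 27.5 CPM in EV and at 7.48, 7.30, 8.28 and 9.23 CPM in KO. The groups were well separated, and the fall was 3.05-fold (log2 fold change −1.61, SE 0.0986, edgeR adjusted p = 5.86e-10). It lay within 1 SE of that of Thbs2 (−1.59, SE 0.102), and Thbs2 fell more without EV replicate 2, EV replicate 3, KO replicate 1 or KO replicate 3. On the log2(FPKM + 1) scale Mgp fell more (−1.44) than Postn (−1.26). Among the 1711 genes called lower it ranked 60 by size, and Thbs2 ranked 64. Its closest relative, Tgfbi, which has the same fasciclin domains, went the other way, from 49.1 ± 1.64 to 56.8 ± 1.52 CPM (SD, n = 4 each; 0.21, SE 0.0520, edgeR adjusted p = 0.00591). The FPKM ratio of Postn to Tgfbi went from 0.309 ± 0.0306 to 0.0875 ± 0.0106 (SD, n = 4 each; exact permutation test, two-sided, adjusted p = 0.0405 over 17 ratios).

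SPARC (osteonectin) binds collagen and calcium and counters cell spreading. Sparc (ENSMUSG00000018593, chromosome 11, 55394500 to 55420080, minus strand) stood at 7675, 7136, 7467 and 7265 CPM in EV and at 6557, 6072, 6372 and 6449 CPM in KO. The groups did not overlap, and the fall was small, 1.16-fold (log2 fold change −0.22, SE 0.0395, edgeR adjusted p = 0.000436). With limma on log2(FPKM + 1) without a filter it did not pass (−0.27, adjusted p = 0.115). Because Sparc is so abundant, counting error was 0.254% of its EV level and the spread between EV libraries was 3.19%.

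Osteopontin is a phosphorylated secreted protein that binds the alpha-v integrins and CD44. Spp1 (ENSMUSG00000029304, chromosome 5, 104435118 to 104441050, plus strand) stood at 14.7, 15.7, 16.1 and 11.7 CPM in EV and at 28.1, 21.4, 22.2 and 24.03 CPM in KO. The lowest KO library lay above the highest EV library, and the rise was 1.64-fold (log2 fold change 0.71, SE 0.102, edgeR adjusted p = 3.35e-05). Macrophages also make osteopontin. Of 6 immune markers, the summed level was 6.25 to 7.31 CPM in EV and 9.85 to 11.2 CPM in KO, with Adgre1 at 0 counts in all libraries, Ptprc near 0 (means of 0.0116 and 0.0133 CPM), and Cd68 at 4.74 and 7.89 CPM. Their part in the Spp1 result was not tested.

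Matrix Gla protein carries vitamin K-dependent carboxylated glutamates, inhibits calcification of soft tissue and binds BMP ligands. Mgp (ENSMUSG00000030218, chromosome 6, 136872436 to 136875805, minus strand) stood at 166, 151, 135 and 112 CPM in EV and at 55.8, 49.2, 57.9 and 49.3 CPM in KO. The EV libraries varied more than the KO libraries (16.2% and 8.43% of the mean), but the lowest EV library lay well above the highest KO library. The fall was 2.66-fold (log2 fold change −1.41, SE 0.0896, edgeR adjusted p = 1.04e-09). Bone-forming cells also make Sparc and Spp1, and 2 of 7 markers of these cells were tested: Alpl, the tissue-nonspecific alkaline phosphatase, fell from 6.39 ± 0.711 to 2.56 ± 0.496 CPM (SD, n = 4 each; −1.32, edgeR adjusted p = 3.9e-06), and Runx2 rose (0.44, adjusted p = 0.00152). Bglap, Ibsp and Dmp1 held 0 counts in all libraries and Sp7 was near 0 (means of 0.0344 and 0.0908 CPM). The 7 markers summed to 18.8 to 22.9 CPM in EV and 19.5 to 23.9 CPM in KO. Their part in the Mgp result was not tested.

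The wider families of the members were mostly silent in these cells. Of 22 relatives, 7 passed the filter on low counts. Of these 3 rose and 2 fell (71.4% called, against 26.0% of all genes), and the 15 others reached at most 0.582 CPM in any library. Among the SPARC relatives, Smoc2, a secreted calcium-binding protein, stood at 56.2, 56.0, 60.5 and 62.0 CPM in EV and at 25.2, 23.2, 27.5 and 26.3 CPM in KO, with no overlap (−1.20, SE 0.0645, edgeR adjusted p = 1.12e-10). Fstl1, a follistatin-like factor that the epicardium secretes, went from 1524 ± 56.8 to 1215 ± 70.8 CPM (SD, n = 4 each; −0.33, SE 0.0472, edgeR adjusted p = 3.42e-05). Both SPARC relatives that passed thus fell as Sparc did, and Spock2 was near the detection limit (0.567 and 0.558 CPM, edgeR adjusted p = 0.954). The CCN relative Wisp1 went from 672 ± 20.2 to 756 ± 15.6 CPM (SD, n = 4 each; 0.17, SE 0.0416, edgeR adjusted p = 0.00485), opposite in sign to Ctgf and Cyr61. The tenascin Tnxb rose (0.52, SE 0.134, edgeR adjusted p = 0.00703), a call that limma on the FPKM values did not make (adjusted p from 0.107 to 0.133), and Thbs3 was at 15.7 ± 0.720 and 17.4 ± 0.910 CPM (SD, n = 4 each; edgeR adjusted p = 0.178). Within families, 12 of 17 ratios between tested genes differed between groups at an adjusted p of 0.05 in the exact permutation test. Each of the 12 had the lowest p this test can take (0.0286). They included Ctgf to Nov, Cyr61 to Nov and Nov to Wisp1, and Nov passed the low-count filter through its KO libraries. The ratios share genes and were added after values were seen, so they describe the calls above and are no further test. The share that would differ among other gene pairs was not computed. The 5 that did not pass were those of Thbs1 to Thbs3, Tnc to Tnxb, Sparc to Fstl1, Sparc to Spock2 and Spock2 to Fstl1.

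**Figure D2:**
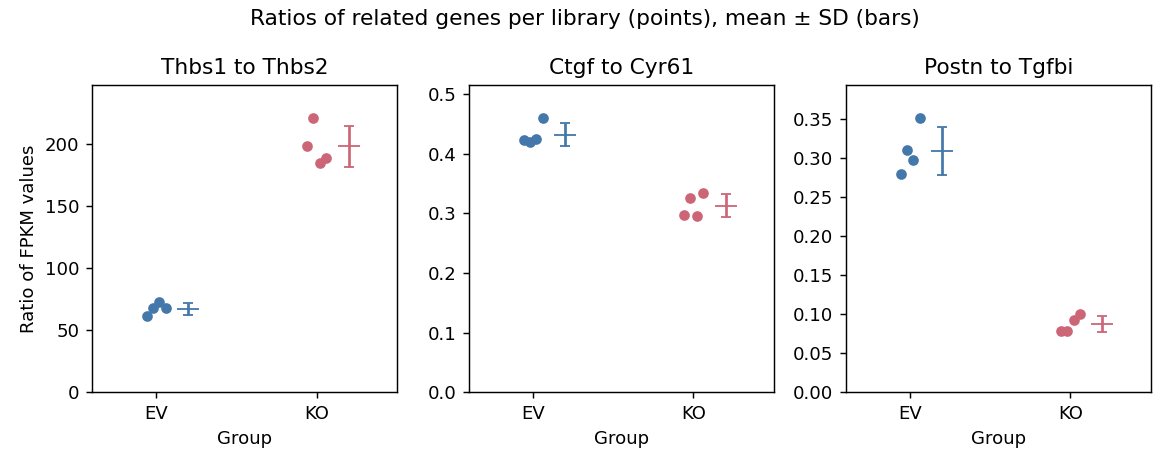
Ratios of FPKM values within each of 4 EV and 4 KO libraries (points) with mean ± SD (bars), for Thbs1 to Thbs2, Ctgf to Cyr61 and Postn to Tgfbi; each y axis starts at 0. The first ratio is higher in every KO library and the other 2 are lower in every KO library.

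Of 24 listed receptors for matricellular proteins, 18 were tested, 8 rose and 1 fell (9 of 18 called, against 26.0% of all genes), with a median log2 fold change of 0.12 (0.0050 over all genes). The laminin and CCN receptor subunit Itga6 went from 30.7 ± 1.22 to 54.9 ± 4.25 CPM (SD, n = 4 each; 0.84, SE 0.0643, edgeR adjusted p = 1.18e-08). Cd44, which binds hyaluronan and osteopontin, rose by 0.55 on the log2 scale (SE 0.0660), and Lrp1, which takes up thrombospondins with their bound proteases, rose by 0.32 (SE 0.0515). The syndecan Sdc1 (0.30), calreticulin, Calr (0.19), and Itga3 (0.15) rose too. Lrp6, a Wnt co-receptor that binds CTGF, was the 1 that fell (−0.19, edgeR adjusted p = 0.0154), but it did not pass without KO replicate 1 or KO replicate 3. Itga3 did not pass with library totals alone, and neither Itga3 nor Calr passed on the filtered log2(FPKM + 1) scale. Without a filter on that scale Itga3 passed and Calr did not. Rises numbered 4 or 5 in the FPKM values and 5 without KO replicates 2 and 3, and falls 2 or 3 in several alternatives.

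Of 24 tested regulators that act on matricellular genes, 6 rose, 2 fell and 16 did not pass (33.3% called, near the 26.0% of all genes), with a median log2 fold change of 0.076. The immediate early factor Egr1 went from 71.3 ± 2.81 to 121 ± 10.2 CPM (SD, n = 4 each; 0.76, SE 0.0582, edgeR adjusted p = 1.21e-08), and the skeletal factors Sox9 (0.99, SE 0.181) and Runx2 (0.44, SE 0.0932) rose from 2.75 and 13.8 CPM in EV. The TGF-beta receptor Tgfbr2 (0.37, SE 0.0427) and the signal transducer Smad3 (0.17, SE 0.0418) rose, while the ligand Tgfb3 (−0.29, SE 0.0404) and Smad2 (−0.26, SE 0.0774, edgeR adjusted p = 0.0194) fell. Smad2 did not pass without EV replicate 4 or KO replicate 4 or without KO replicates 2 and 3, which left 1 fall in each case. Transcripts of the coactivators Yap1 and Wwtr1 and of the DNA-binding factors Tead1 and Srf, through which Ctgf and Cyr61 are known to be driven, did not pass: Yap1 was at −0.040 (SE 0.0410, edgeR adjusted p = 0.517), Wwtr1 at −0.016 (SE 0.0432), Tead1 at −0.035 (SE 0.0539) and Srf at −0.057 (SE 0.0542). The signs of Wwtr1 and Tead1 turned without EV replicate 4. Transcript levels do not show the activity of these factors.

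Of 20 listed matrix proteins, ligands and enzymes that bind or process the members, 17 were tested, 8 rose, 3 fell and 6 did not pass (64.7% called, against 26.0% of all genes), with a median log2 fold change of 0.12. Fibronectin, Fn1 (0.59, SE 0.0465), and the collagens Col1a1 (0.52, SE 0.0428), Col1a2 (0.32, SE 0.0378) and Col3a1 (0.35, SE 0.0406), the fibres that periostin, SPARC and thrombospondins bind, rose, opposite in sign to Postn, Sparc and Thbs2. Mmp3, a protease that cuts several matricellular proteins, went from 17.0 ± 2.22 to 59.2 ± 4.44 CPM (SD, n = 4 each; 1.79, SE 0.0822, edgeR adjusted p = 1.06e-11), and Vegfa, which CTGF binds, rose by 0.53 (SE 0.0509). The transglutaminase Tgm2 (−0.24), the gelatinase Mmp2 (−0.21) and the ligand Bmp4 (−0.17), which Mgp binds, fell. Bmp4 did not pass without EV replicate 2 or without any of KO replicates 1, 2 and 4. With library totals alone and in the FPKM values 5 fell.

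**Figure D3:**
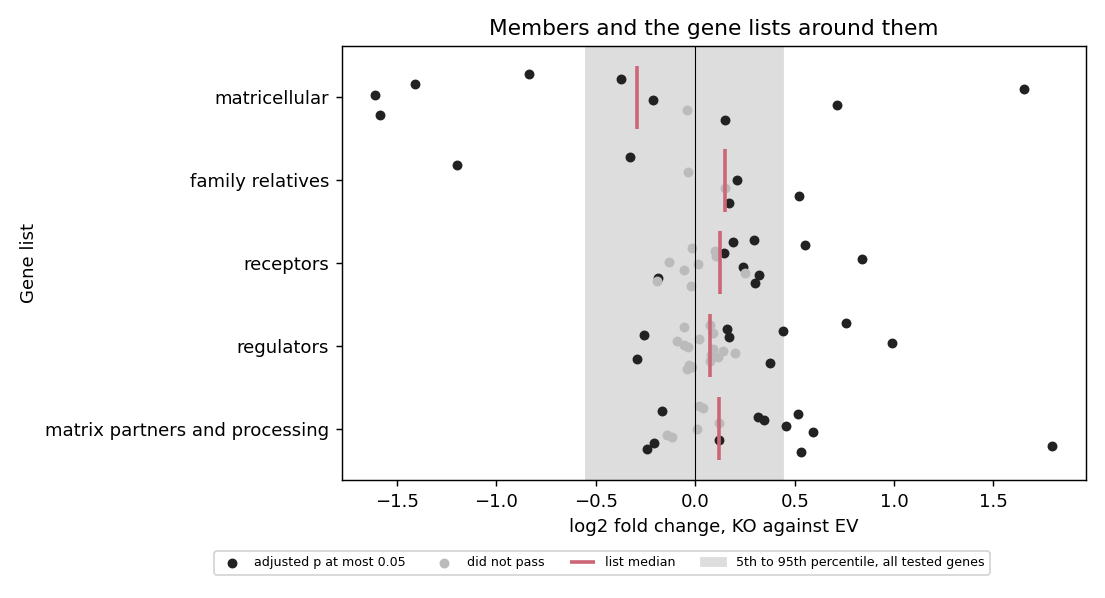
Log2 fold changes, KO against EV (x axis), of the tested genes in 5 lists (y axis), black where the edgeR adjusted p was at most 0.05, with the list median in red and the 5th to 95th percentile of all 12801 tested genes (−0.55 to 0.44) shaded. Of the 10 matricellular genes 6 lie outside the shaded range, 4 below and 2 above it.

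Markers of other cell types moved beside these results. The 8 fibroblast markers, which count Col1a1 and Col3a1 among them, summed to 16542 to 18025 CPM in EV and to 22294 to 23806 CPM in KO, and of the 7 tested 3 rose and 2 fell (71.4% called, against 26.0% of all genes). The other 2 did not pass, and the log2 fold changes of the 7 ran from −0.38 to 0.52. Most of the fibroblast sum was Col1a1 (means of 9668 CPM in EV and 13848 CPM in KO) and Col3a1 (4060 and 5157 CPM). Both were already counted above among the matrix partners. The 7 cardiomyocyte markers, nearly all Tnnt2, summed to 143.8 to 156 CPM in EV and to 110.8 to 127.5 CPM in KO, with Nppa at 0 counts. Of the 2 tested, Tnnt2 fell (−0.33, edgeR adjusted p = 5.67e-05). Myh6 did not pass (means of 0.968 and 2.30 CPM, edgeR adjusted p = 0.0611). Myh7, which was not tested, had means of 1.17 CPM in EV and 0.113 CPM in KO. The 10 liver markers, of which 4 were tested, summed to 3.89 to 6.19 CPM in EV and to 7.73 to 19.6 CPM in KO, with the most in KO replicates 2 and 3. The part of these markers in the results was not tested. Without KO replicates 2 and 3 the same 6 members were lower and Nov and Spp1 higher, with log2 fold changes of −1.56 for Postn, −1.55 for Thbs2, −1.42 for Mgp, −0.83 for Ctgf, −0.38 for Cyr61, −0.18 for Sparc, 1.79 for Nov and 0.84 for Spp1 (edgeR adjusted p from 8.5e-07 to 0.0143). Tnc did not pass in that fit (0.14, edgeR adjusted p = 0.144).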

How the data were processed

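Messenger RNA was measured in 8 libraries, grouped by title. The authors deposited raw counts per gene and FPKM values for the same genes. Build mm10 and DESeq 1.6.3 are named in the submitters' processing notes. Aligner, read counter, gene annotation and strand setting are named in no source used here, so reads of overlapping genes on opposite strands cannot be told apart. The deposited FPKM values equal counts divided by gene length and library sum for 100% of nonzero values (tolerance 1e-06).

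Counts were tested in edgeR 4.0.16 (R 4.3.3) with TMM scaling, filterByExpr (minimum count 10, total 15) and quasi-likelihood F tests, adjusted by Benjamini-Hochberg over 12801 genes with a threshold of 0.05. The SE is the log2 fold change divided by the square root of F. The script was tested on simulated data. Exact permutation tests used all 70 arrangements. Members and lists were chosen with earlier results of these data known, and the ratios between relatives were added after values were seen. Named genes were the 10 members, Hdac3, every tested relative and up to 6 called genes of each other list by adjusted p. Lrp6, Smad2, Tgm2, Mmp2, Bmp4, Yap1, Wwtr1, Tead1, Srf and the marker genes were named after their values were seen. Alternatives used DESeq2 1.42.0, limma 3.58.1, other scalings and low-count filters, log2(FPKM + 1 or 0.1), a replicate block and left-out libraries. The 95% interval of a fold change is 1.96 SE either side and includes the spread between libraries, while the detection limit of 3 counts covers counting error only.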

Additional observations from a re-analysis of the deposited data

How the results depend on the processing

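Over 19 alternative fits, Thbs2, Ctgf, Cyr61, Postn, Spp1 and Mgp kept their direction and passed in each, and Nov did so in the 17 that tested it. Sparc was lost in 1 and Tnc in 11. The main fit called 3324 genes, 1613 higher and 1711 lower. Genes called higher numbered 1039 with library totals alone, 896 and 897 on the log2(FPKM + 1) and log2(FPKM + 0.1) scales, 766 on the first without a filter and 880 without KO replicates 2 and 3, where 1094 were lower and 1974 were called in all. On both filtered FPKM scales 9 members were tested and 1 was higher. Receptors called higher were 4 on the log2(FPKM + 1) scale and 5 on the log2(FPKM + 0.1) scale, without a filter on the first and without KO replicates 2 and 3. Receptors called lower, 1 in the main fit, were 2 with DESeq2, library totals alone, both filtered FPKM scales, the replicate block and without KO replicates 2 and 3, and 3 without a low-count filter on counts or FPKM. Regulators called lower were 1 on the unfiltered FPKM scale and without KO replicates 2 and 3. Matrix partners called lower were 5 with library totals alone and on each FPKM scale. Leaving out 1 library at a time gave 2621 to 3359 genes called, 2 to 3 members higher, 6 lower, 1 to 3 receptors lower and 1 to 2 regulators lower. The cause of these moves was not tested.

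Signs turned only in genes that did not pass. Spock2 reached 0.027 with limma-voom and 0.18 without KO replicates 2 and 3, and lay between −0.30 and 0.12 with 1 library left out. Hdac3 was 0.024 without KO replicates 2 and 3 and lay between −0.023 and 0.032 with 1 left out. Over the same fits Thbs1 ranged from −0.071 to 0.000436, Wwtr1 from −0.036 to 0.011 and Tead1 from −0.070 to 0.019. Same-numbered EV and KO libraries deviated together with r of 0.124, −0.0338, 0.0626 and 0.0907. Between libraries of different number r ran from −0.114 to 0.0632, so that 0.124 and 0.0907 were the highest of all. These small values do not settle whether the numbers pair the samples, and the main fit took them as unpaired. A replicate block gave 3737 genes (1879 higher, 1858 lower), with 3 members higher and 6 lower. The median of all genes moved by less than 0.1 under each scaling (−0.051 with library totals alone). Depth limits Nov, with 5 to 39 counts per library.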
